A study of Homo sapiens with 2 samples.

Results

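The genes described here encode 8 chains of collagens IV, V and VI (COL4A1, COL4A2, COL4A5, COL5A1, COL5A2, COL6A1, COL6A2 and COL6A3) and 2 secreted enzymes that act on such matrix, peroxidasin (PXDN) and lysyl oxidase-like 2 (LOXL2). These 10 genes were chosen by name from 12688 measured genes, with their differences between the arrays already known, and all 28 probe sets annotated to them were used. A probe set is the group of array probes that reads 1 transcript or a few related ones. Because the choice rested on this same comparison, the differences below are a description of the 10 genes and not a test of them.

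The data compare MDA-MB 231 cells stably transfected with S100A7 in the plasmid pIRES2-EGFP with MDA-MB 231 cells stably transfected with pIRES2-EGFP alone, on 1 array each. MDA-MB 231 is a highly invasive human breast cancer line without estrogen receptor, and S100A7 (psoriasin) is a small calcium-binding protein of inflamed skin. The series asks which genes S100A7 regulates. The labels do not say whether each transfectant was 1 clone or a pool of selected cells, and with 1 array per group the effect of S100A7, the selection of each line and the array cannot be told apart. No difference below could be set against the spread between cultures, and none has a p-value.

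S100A7 itself read 13232 in S100A7 cells and 11.99 in vector cells, at least 186-fold higher. A floor at each array's 50th percentile (68.99 on the S100A7 array and 71.04 on the vector array) stood in for detection. A probe set at or above the floor on either array was called measured. Values under the floor were set to it, so a fold with 1 side there is a lower bound and is written as at least that size. Of the markers of the line, VIM, CD44 and EGFR were measured on both arrays and within 2-fold, whereas ESR1, PGR and CDH1 lay below the floor on both. The 3' over 5' ratios were 1.07 on the S100A7 array and 1.09 on the vector array for ACTB, and 0.801 on the S100A7 array and 0.718 on the vector array for GAPDH.

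Collagen IV forms the network of basement membranes, in which trimers of alpha chains join end to end through their terminal domains, and peroxidasin locks these joints with a sulfilimine bond. Collagen VI forms beaded filaments around cells from trimers that hold an alpha1, an alpha2 and an alpha3 chain. Collagen V, most often built from alpha1 and alpha2 chains, is incorporated into collagen I fibrils and limits their width. LOXL2 is a copper-dependent amine oxidase that cross-links collagen IV and other matrix proteins through lysine residues.

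The chains of collagen VI alpha1 and alpha2 and of collagen IV alpha1 and alpha2 are each encoded side by side. COL4A1 (chr13:110148963-110307157) and COL4A2 (chr13:110307284-110513209) start back to back with 126 bases between them on build GRCh38.p14. COL6A1 (chr21:45981770-46005048) and COL6A2 (chr21:46098112-46132848) lie 93063 bases apart. The region shared by COL4A1 and COL4A2 is shown because these back-to-back genes had like differences, those before COL6A2 and COL5A1 because these genes were among the highest, and that of COL6A3 because its level was nearly equal on both arrays. RefSeq sequences of GRCh38.p14 were listed for 7 of the 10 genes. Each runs 5′ to 3′ and ends just before the start site, except the first, which is the whole interval between COL4A1 and COL4A2 on the strand of COL4A2. Capitals mark matches on either strand to the TATA box (TATAAA), the CCAAT box (CCAAT), the GC box (GGGCGG), the AP-1 site (TGANTCA) and the NF-kB motif.
COL4A1/COL4A2, chr13:110307158-110307283, plus strand: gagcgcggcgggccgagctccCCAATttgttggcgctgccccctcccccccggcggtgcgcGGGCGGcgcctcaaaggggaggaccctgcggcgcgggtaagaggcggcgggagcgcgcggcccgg
COL6A2, chr21:46097862-46098111, plus strand: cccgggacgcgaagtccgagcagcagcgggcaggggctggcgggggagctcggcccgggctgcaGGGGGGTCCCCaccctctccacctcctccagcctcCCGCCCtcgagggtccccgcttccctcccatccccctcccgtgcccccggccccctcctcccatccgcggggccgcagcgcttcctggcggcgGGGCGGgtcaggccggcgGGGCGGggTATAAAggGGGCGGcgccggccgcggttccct
COL5A1, chr9:134641553-134641802, plus strand: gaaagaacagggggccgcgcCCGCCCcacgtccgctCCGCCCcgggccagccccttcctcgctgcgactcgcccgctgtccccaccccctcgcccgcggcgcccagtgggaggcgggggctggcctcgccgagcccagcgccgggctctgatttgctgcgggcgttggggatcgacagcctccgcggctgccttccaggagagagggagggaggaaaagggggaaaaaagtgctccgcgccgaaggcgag
COL6A3, chr2:237414165-237414414, minus strand: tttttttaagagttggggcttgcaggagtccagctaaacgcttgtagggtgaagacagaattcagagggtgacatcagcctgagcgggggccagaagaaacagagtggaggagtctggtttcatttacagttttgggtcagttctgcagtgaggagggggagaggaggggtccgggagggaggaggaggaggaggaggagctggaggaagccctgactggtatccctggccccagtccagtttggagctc

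The interval between COL4A1 and COL4A2 was 80.2% G or C and held 1 CCAAT and 1 GGGCGG. Among the 126 bases before the starts of 27305 genes, 21.9% of windows held CCAAT and 34.6% held GGGCGG. The 250 bases before COL6A2 were 79.6% G or C and held 4 matches to GGGCGG, 1 to TATAAA and 2 overlapping matches to the NF-kB motif. Of all windows of that length 42.3% held GGGCGG, 11.1% TATAAA and 6.60% the NF-kB motif. The window of COL5A1 held 2 matches to GGGCGG and none to the other motifs, and that of COL6A3, 56.0% G or C, held none of the 5. These matches describe letters in the windows and not bound sites.

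Of the 10 genes, 5 were higher by 2-fold or more on the S100A7 array and 0 lower by as much, each gene read by its brightest measured probe set. Over all 12688 measured genes, 1.8% were that much higher (228 genes) and 2.25% that much lower (286 genes). The 5 were COL6A2, COL6A1, PXDN, COL5A1 and COL4A1, and the log2 ratio was above 0 for 9 of the 10, all but COL5A2. Over all 12688 measured genes it was above 0 for 5816. COL4A5, counted among the 9, passed the floor through the S100A7 array alone, so its direction followed from the floor. The median log2 ratio of the 10 genes was 1.04, beside -0.04 over all measured genes. At the level of probe sets, 22 of the 28 were measured, of which 13 were higher and 0 lower by 2-fold or more, beside 2.2% and 2.13% of 24438 probe sets with 1 gene. Among the 13, a pair of COL6A1 probe sets and the dimmer COL6A2 probe set passed the floor through the S100A7 array alone. The direction of these followed from the floor. The differences were therefore uneven within the group, from 4.40-fold higher for COL6A2 to 1.52-fold lower for COL5A2.

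**Figure D1:**
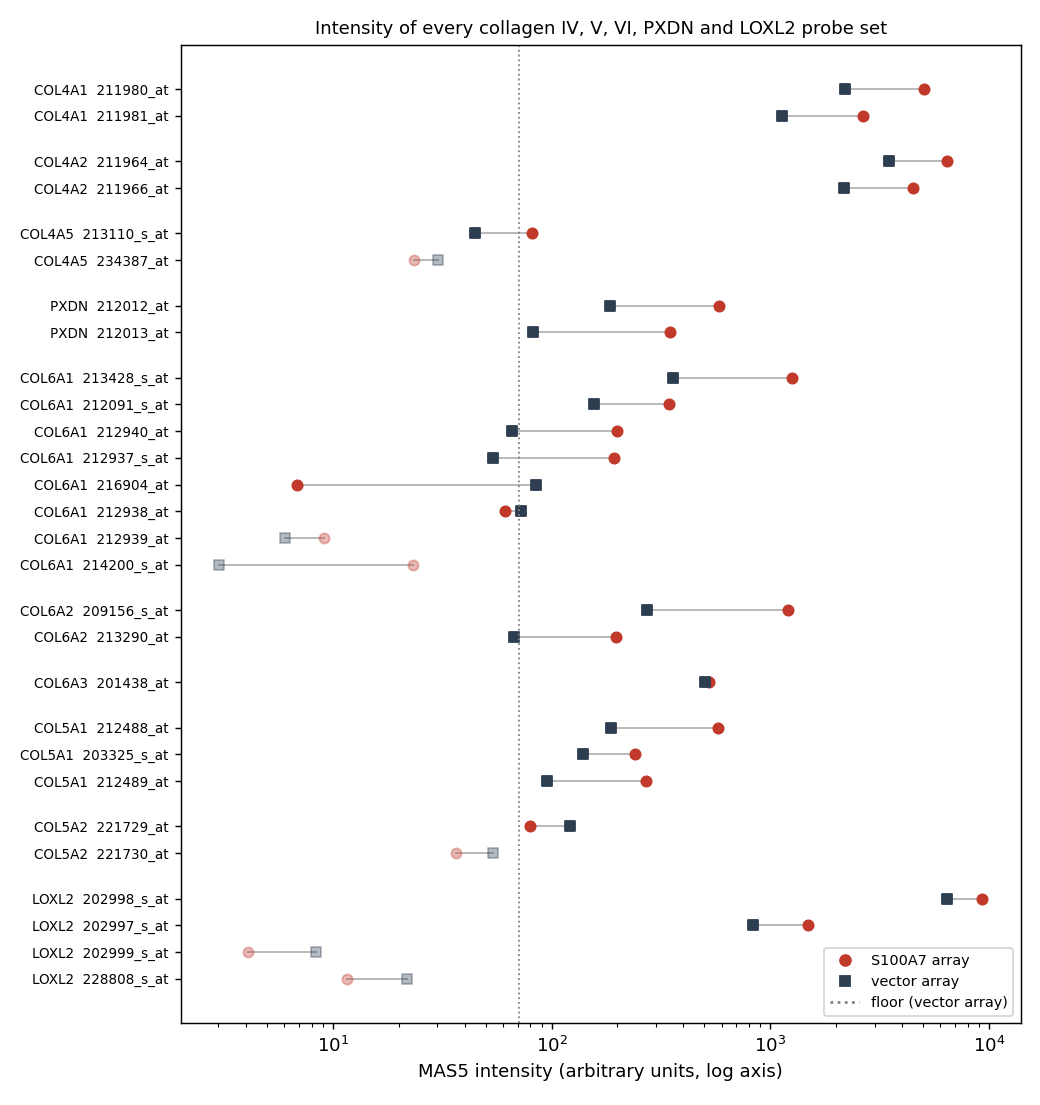
MAS5 intensity (horizontal log axis, arbitrary units) of each of the 28 probe sets on the S100A7 array (circles) and the vector array (squares), joined by a line; faint symbols mark the 6 probe sets below the floor on both arrays, and the dotted line is the floor of the vector array. The circles lie to the right of the squares for all probe sets of COL4A1, COL4A2, PXDN, COL6A2 and COL5A1, while COL6A3 has both symbols nearly at the same place and COL5A2 has the order turned.

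Among the collagen IV chains, COL4A1 and COL4A2 encode the alpha1 and alpha2 chains that make up the basement membrane network of most tissues. The brightest COL4A1 probe set read 5046 in S100A7 cells and 2189 in vector cells, 2.30-fold higher. On a bulk array, more cells making a transcript and more transcript per cell cannot be told apart. Its other probe set read 2660 in S100A7 cells and 1132 in vector cells, 2.35-fold higher. The log2 ratios of this pair of probe sets, 1.20 and 1.23, were the closest of any of the 7 members with several measured probe sets.

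COL4A2 read 6404 in S100A7 cells and 3474 in vector cells with its brightest probe set, 1.84-fold higher. With its other probe set it read 4514 in S100A7 cells and 2166 in vector cells, 2.08-fold higher. The COL4A2 probe sets thus fell on either side of 2-fold although their log2 ratios, 0.88 and 1.06, were 0.18 apart, and the gene was not among the 5. COL4A1 and COL4A2 lay among the brightest 4229 genes by mean log2 intensity, where 0.544% were higher and 0.52% lower by 2-fold or more.

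COL4A5, whose alpha5 chain belongs to the kidney filter and other specialised basement membranes, was barely detected. Its 1 measured probe set read 81.2 in S100A7 cells and 44.9 in vector cells, at least 1.14-fold higher, and the other read 23.6 in S100A7 cells and 30.2 in vector cells, below the floor on both arrays. Of the remaining collagen IV genes, COL4A3 and COL4A6 were below the floor on both arrays. COL4A4 passed it only in vector cells, at 39.8 in S100A7 cells and 77.4 in vector cells. Within collagen IV the difference between the arrays was therefore seen in the alpha1 and alpha2 genes, and the other 4 genes were near or below the floor.

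PXDN, the peroxidase that forms the sulfilimine bonds of collagen IV, was 3.17-fold higher. Its brightest probe set read 585 in S100A7 cells and 184 in vector cells. The other read 349 in S100A7 cells and 82.2 in vector cells, 4.24-fold higher, with the vector value just above the floor. The relative PXDNL was below the floor on both arrays, at 15.4 in S100A7 cells and 2.96 in vector cells. Of the 7 members with at least 2 measured probe sets, PXDN, COL4A1 and COL6A2 had all of them at least 2-fold higher, and 0 members had all of them at least 2-fold lower. Over the 6465 genes with several measured probe sets these shares were 0.309% and 0.232%. The dimmer COL6A2 probe set passed the floor through the S100A7 array alone, so its direction followed from the floor. By its brightest probe set PXDN stood at rank 42 of 12688 from the highest log2 ratio.

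**Figure D2:**
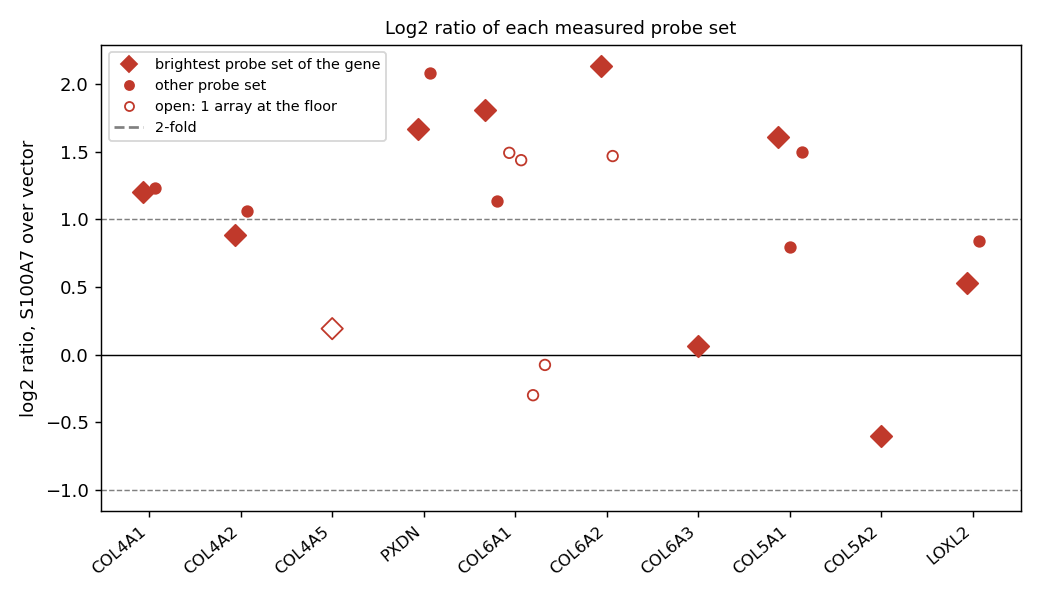
Log2 ratio of S100A7 over vector (vertical axis) for each of the 22 measured probe sets by gene; diamonds mark the brightest probe set of each gene, open symbols have 1 array at the floor, and dashed lines mark 2-fold. The probe sets of COL4A1 coincide at 1.20 and 1.23, whereas those of COL6A1 run from -0.30 to 1.81.

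By brightest probe sets, collagen VI held the 2 largest differences of the 10 genes beside a chain with nearly none. That order changed with the probe sets used: the median over probe sets was 1.88 for PXDN, 1.80 for COL6A2 and 1.29 for COL6A1, and without the suffixes _x_at and _s_at the log2 ratios were 1.67 for PXDN, 1.61 for COL5A1, at least 1.49 for COL6A1 and at least 1.47 for COL6A2. COL6A2, the alpha2 chain, read 1203 in S100A7 cells and 274 in vector cells, 4.40-fold higher and rank 12 of 12688. Its other probe set read 197 in S100A7 cells and 67.0 in vector cells, at least 2.77-fold higher because the vector value lay below the floor.

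COL6A1, the alpha1 chain, had 8 probe sets with conflicting ratios. The brightest read 1256 in S100A7 cells and 358 in vector cells, 3.51-fold higher, at rank 32. A second above the floor on both arrays read 345 in S100A7 cells and 157 in vector cells, 2.20-fold higher. These readings put COL6A1 beside COL6A2 among the higher genes.

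A further pair of COL6A1 probe sets was above the floor only in S100A7 cells. The first read 199.9 in S100A7 cells and 66.1 in vector cells, at least 2.81-fold higher. The next read 193 in S100A7 cells and 53.98 in vector cells, at least 2.71-fold higher. Both passed as measured through the S100A7 array alone, so their direction followed from the floor.

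The other 4 COL6A1 probe sets did not reach the floor in S100A7 cells, and those of them that were measured passed through the vector array alone. One read 6.84 in S100A7 cells and 84.9 in vector cells, at least 1.23-fold lower, and one read 61.1 in S100A7 cells and 72.7 in vector cells, at least 1.05-fold lower. The last pair, at 9.16 and 23.2 in S100A7 cells and 6.03 and 3.02 in vector cells, was below the floor on both arrays. The log2 ratios of the 6 measured COL6A1 probe sets thus ran from -0.30 to 1.81, and their median was 1.29.

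COL6A3, the alpha3 chain and the largest of the trimer, had 1 probe set, which read 524 in S100A7 cells and 501 in vector cells, a log2 ratio of 0.06. With COL6A2 at 2.14 and COL6A1 at 1.81, the 3 genes of the collagen VI trimer did not show like ratios. Whether the chains differ in response could not be tested, since there was 1 ratio per probe set. COL6A5 and COL6A6, which encode chains that can take the place of alpha3, were below the floor on both arrays, COL6A6 at 46.7 in S100A7 cells and 43.4 in vector cells and COL6A5 at 17.6 in S100A7 cells and 23.7 in vector cells with their brightest probe sets.

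**Figure D3:**
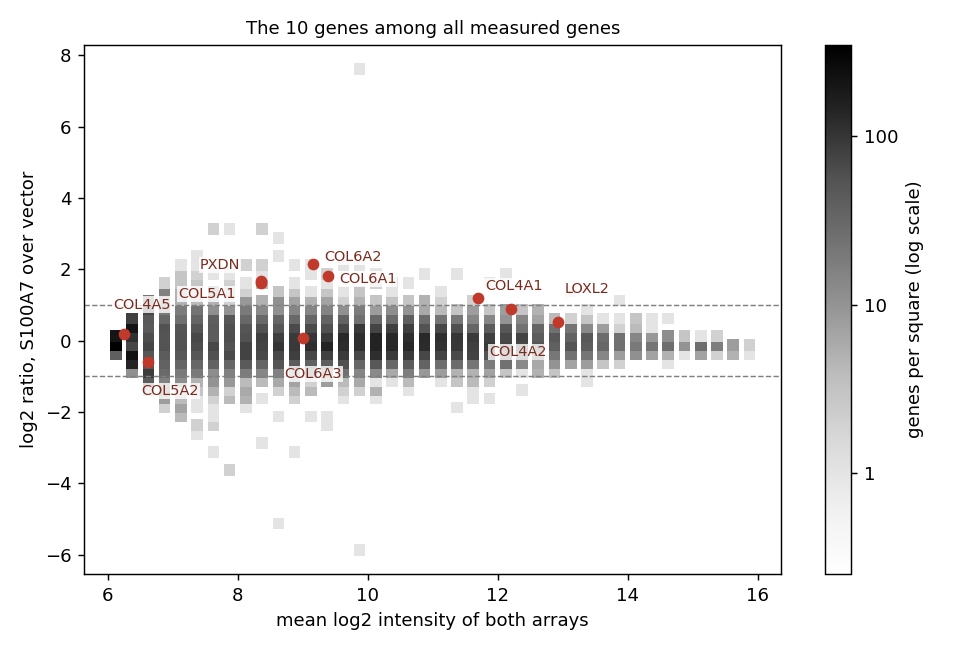
Log2 ratio of S100A7 over vector (vertical axis) against the mean log2 intensity of both arrays (horizontal axis) for the 12688 measured genes, shaded by the number of genes per square, with the 10 genes as labelled points and 2-fold as dashed lines. COL6A2, COL6A1, PXDN and COL5A1 lie above nearly all genes of like intensity, and COL6A3 and COL4A5 lie among the bulk.

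The collagen V genes went in opposite directions. COL5A1, the alpha1 chain, read 574 in S100A7 cells and 188 in vector cells, 3.06-fold higher. Its dimmest probe set read 269 in S100A7 cells and 95.4 in vector cells, 2.82-fold higher, and the remaining one read 241 in S100A7 cells and 139 in vector cells, 1.73-fold higher. All 3 probe sets were higher in S100A7 cells, and the 1.73-fold one carries the suffix _s_at, which marks probes that can match several transcripts. In all, 8 of the 22 measured probe sets carry this suffix, among them the brightest ones of COL6A1, COL6A2, COL4A5 and LOXL2.

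COL5A2, the alpha2 chain, read 79.9 in S100A7 cells and 121 in vector cells, 1.52-fold lower. Its other probe set read 36.6 in S100A7 cells and 54.2 in vector cells, below the floor on both arrays. COL5A3, the alpha3 chain, was also below the floor, at 47.1 in S100A7 cells and 31.9 in vector cells. COL5A2 and COL4A5 lay among the dimmest 4230 genes, where 2.84% were higher and 4.54% lower by 2-fold or more. LOXL2 lay among the brightest genes with COL4A1 and COL4A2. The other 5 members, COL5A1, COL6A1, COL6A2, COL6A3 and PXDN, lay among the middle 4229 genes, where these shares were 2.01% and 1.7%.

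LOXL2 was higher by less than 2-fold. Its brightest probe set read 9322 in S100A7 cells and 6447 in vector cells, 1.45-fold higher, and the other measured one read 1491 in S100A7 cells and 834 in vector cells, 1.79-fold higher. The 2 remaining LOXL2 probe sets lay under the floor throughout, at 4.08 and 11.6 in S100A7 cells and 8.36 and 21.8 in vector cells, so that 2 of its 4 probe sets gave a ratio.

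The other lysyl oxidases did not share the LOXL2 direction. LOX, the founding member of the family, read 701 in S100A7 cells and 695 in vector cells, and the log2 ratios of its 3 probe sets ran from -0.87 to 0.01. LOXL1, which acts on elastic fibres, read 229 in S100A7 cells and 328 in vector cells, a log2 ratio of -0.52. LOXL4 had a log2 ratio of -0.26. LOXL3 read 88.7 in S100A7 cells and 177 in vector cells, 2.00-fold lower, a value that sat on the threshold and had a log2 ratio of -0.96 after each array was centred on its median. Of the 4 measured genes of this list with PXDNL, 0 were higher and 1 was lower by 2-fold or more. Over all measured genes these shares were 1.8% and 2.25%. The median log2 ratio of the 4 was -0.39.

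Pooled over the members with several measured probe sets, probe sets of 1 gene differed more than over the array. The standard deviation of log2 ratios among the measured probe sets of a gene, pooled over genes, was 0.63 for the 7 members with several, beside 0.36 over 6465 genes. COL6A1 gave the widest range, 2.11 on the log2 scale, followed by COL5A1 at 0.82 and COL6A2 at 0.67. Most of the pooled spread of the members came from COL6A1, so it does not describe the other members. For 6 of the 22 measured probe sets the ratio was a lower bound, and 4 of these 6 belonged to COL6A1.

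Of the 29 other collagen genes with a probe set of their own, 13 were measured, 1 was higher and 0 lower by 2-fold or more. Over all measured genes these shares were 1.8% and 2.25%. Of the 13, 9 were above 0, beside 5816 of all 12688, and their median log2 ratio was 0.30. COL1A2, among the 9, passed the floor through the S100A7 array alone, so its direction followed from the floor. COL16A1, a collagen that associates with fibrils, was at least 2.37-fold higher, at 168 in S100A7 cells and 36.7 in vector cells on its 1 probe set, a log2 ratio above that of COL4A1. Unlike COL4A1, it passed the floor through the S100A7 array alone, so its direction followed from the floor. COL7A1, the collagen of anchoring fibrils, chosen after its values were seen, had log2 ratios of 0.89 and 0.97, close to those of COL4A2. COL1A1, a chain of collagen I, had the lowest log2 ratio, -0.79, at 487 in S100A7 cells and 842 in vector cells. Its other measured probe sets went as high as 0.76, so the COL1A1 probe sets did not agree in direction.

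Of 16 measured genes for the folding and modification of collagen chains, 0 were higher and 1 was lower by 2-fold or more. Over all measured genes these shares were 1.8% and 2.25%. PLOD3, a lysyl hydroxylase that also adds sugars to collagen, read 2596 in S100A7 cells and 5220 in vector cells, 2.01-fold lower, with a log2 ratio of -0.97 after median centring. P3H4, known in mice as a partner of a lysyl hydroxylase, had the highest log2 ratio of the list, 0.72. The median of the 16 genes was 0.13. Of 7 measured genes for procollagen processing and fibril assembly, PCOLCE, the enhancer of procollagen C-proteinase, was 2.01-fold lower, at 83.8 in S100A7 cells and 169 in vector cells, and its log2 ratio was -0.96 after median centring. SPARC, a collagen-binding matricellular protein, had the highest ratio there, 0.65, and the median of the list was -0.32.

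**Figure D4:**
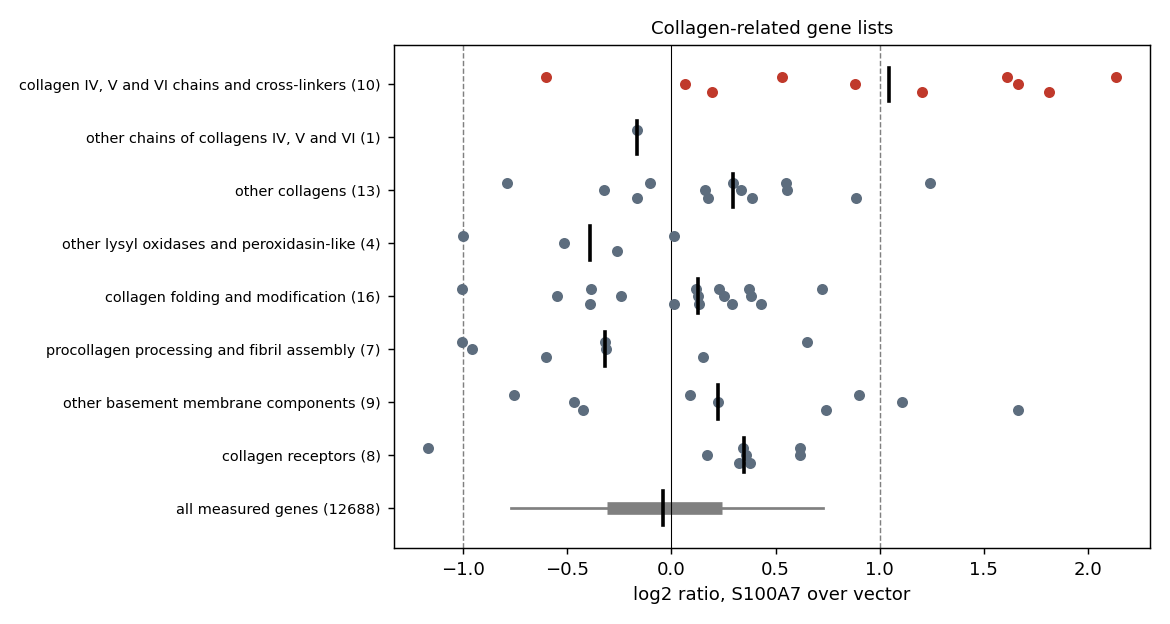
Log2 ratio of S100A7 over vector (horizontal axis) for the measured genes of each list, 1 point a gene, with list medians as black bars; the last row gives the 5th to 95th percentile (thin line), the 25th to 75th (thick line) and the median of all measured genes, and dashed lines mark 2-fold. The 10 genes have a median of 1.04, beside 0.30 for other collagens, 0.13 for folding enzymes and -0.39 for other lysyl oxidases.

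Partners of collagen IV in basement membranes were mixed. Of 9 measured genes among 15 listed, 2 were higher and 0 lower by 2-fold or more, and the median log2 ratio was 0.22. Over all measured genes 1.8% were that much higher and 2.25% that much lower. LAMA5, the laminin alpha5 chain, read 1257 in S100A7 cells and 396 in vector cells, and LAMC1, the laminin gamma1 chain, read 2812 in S100A7 cells and 1304 in vector cells with its other probe set at 0.38 on the log2 scale. LAMA2 was lowest, at -0.76 (79.2 in S100A7 cells and 134 in vector cells). Its other measured probe set went the other way, at least 0.42. That one passed the floor through the S100A7 array alone, so its direction followed from the floor. HSPG2, the proteoglycan perlecan, was 1.86-fold higher, at 1518 in S100A7 cells and 814 in vector cells, with its other probe set at 0.92 on the log2 scale. The nidogens NID1 and NID2, which link laminin to collagen IV, did not reach the floor on either array. HSPG2 and the nidogens were chosen after their values were seen.

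Of 8 measured collagen receptors among 13 listed, 0 were higher and 1 was lower by 2-fold or more. Over all measured genes these shares were 1.8% and 2.25%. Of the 8, 7 were above 0, beside 5816 of all 12688, and their median was 0.35. ITGA10, among the 7, passed the floor through the S100A7 array alone, so its direction followed from the floor. ANTXR2, a receptor that binds collagen IV and takes up collagen VI, read 1796 in S100A7 cells and 4041 in vector cells, 2.25-fold lower. Its 4 probe sets ran from -1.17 to 0.15. The highest of the list was ITGA1, the integrin alpha1 subunit that binds collagen IV, with a log2 ratio of 0.62.

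Neighbouring genes gave the local background on the chromosomes. The 40 nearest measured genes around COL4A1 had a median log2 ratio of -0.11 and none was higher by 2-fold or more (0 of 40). Over all measured genes 1.8% were that much higher and 2.25% that much lower, so few such neighbours would be found in any stretch of this size. On either side of the COL4A1 and COL4A2 pair, IRS2 had a log2 ratio of -0.25 and RAB20 one of -0.10. COL6A1 and COL6A2 lie near the end of chromosome 21, where 31 neighbours of COL6A1 had a median of 0.13. Of these 31, 2 were higher by 2-fold or more, COL6A2 itself and C21orf58 (2.40-fold, chosen after its value was seen), and 1 was lower by as much. Next to them PCBP3 had a log2 ratio of 0.87 (226 in S100A7 cells and 124 in vector cells) and FTCD one of at least 0.56 (105 in S100A7 cells and 16.3 in vector cells). For the 5 genes at least 2-fold higher, the log2 ratio less the median of neighbours ran from 1.31 for COL4A1 to 2.00 for COL6A2.

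**Figure D5:**
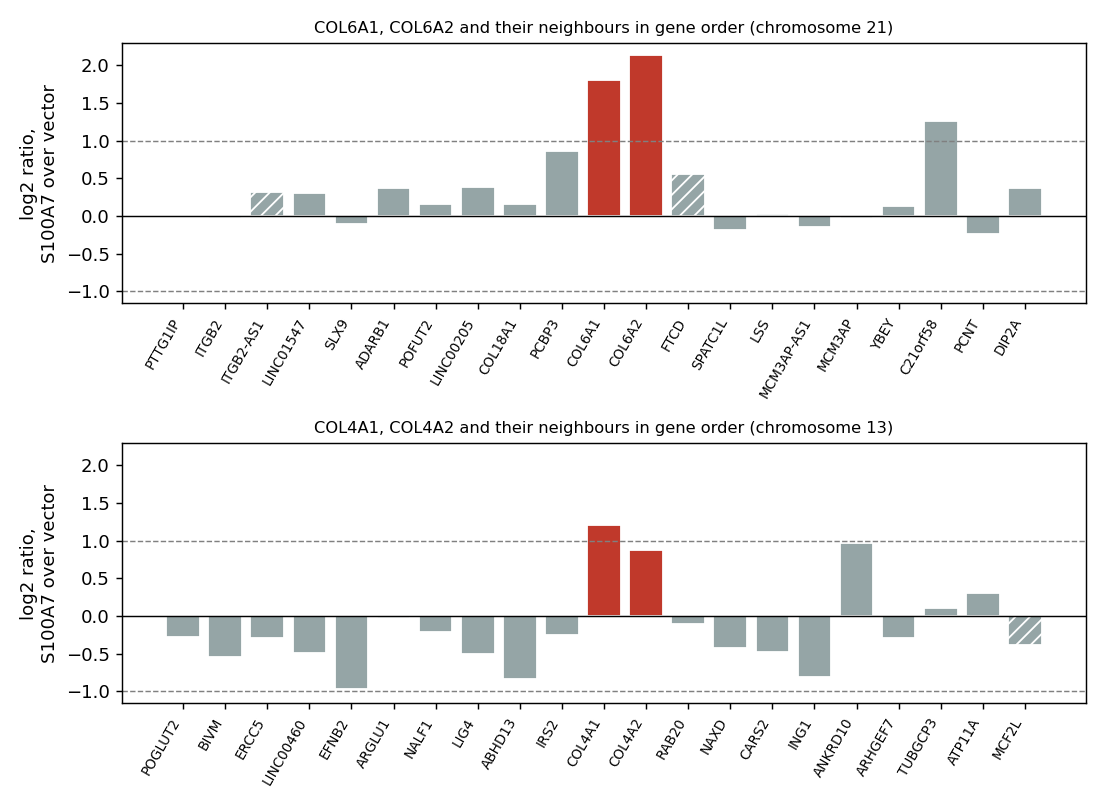
Log2 ratio of S100A7 over vector (bars) for COL6A1 and COL6A2 (top) and COL4A1 and COL4A2 (bottom), in red, and the measured genes on each side in gene order, in grey; hatched bars have 1 array at the floor, and dashed lines mark 2-fold. The red bars reach 1.81 and 2.14 in the top row and 1.20 and 0.88 in the bottom row.

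Collagens V and VI are made in large amounts by fibroblasts, so markers of that cell type were read beside them. Of 9 fibroblast and pericyte markers 3 were measured: PDGFRB at least 1.64-fold higher (117 in S100A7 cells and 65.4 in vector cells), COL1A2 at least 1.26-fold higher and COL1A1 1.73-fold lower. PDGFRB and COL1A2 passed the floor through the S100A7 array alone. Neither array reached the floor for DCN, LUM, COL3A1, PDGFRA, FAP or THY1. The summed intensity of all probe sets of the list was 1726 in S100A7 cells and 1904 in vector cells. COL1A1, whose probe sets did not agree in direction, gave most of both sums, so they say little about the other markers. Of 5 endothelial markers PECAM1 and CDH5 were measured, PECAM1 with a log2 ratio of 0.35 and CDH5 with one of at least 0.15, and VWF, TEK and KDR were below the floor. The summed intensity of endothelial markers was 436 in S100A7 cells and 395 in vector cells. All 4 leukocyte markers, PTPRC, TYROBP, CD14 and CD3E, were below the floor on both arrays, with a summed intensity of 179 in S100A7 cells and 110 in vector cells. What part cells of these types had in the collagen values was not tested.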

How the data were processed

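Total RNA of 2 MDA-MB 231 transfectants was read on 1 Affymetrix array each. The deposited table holds a linear MAS5 intensity for each probe set, per the submitters' processing notes. Of MAS5 the version and scaling target are not stated, and no detection calls were used. The 2% trimmed means of the arrays were equal (500.1), and no further scaling was applied.

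Gene names came from the platform annotation, updated by Entrez identifier to symbols of GRCh38.p14. Of 54675 probe sets 41091 had 1 gene (41037 matched), and those with several genes (1801) or none listed were not used. With controls set aside, a floor at each array's 50th percentile left 24438 probe sets for 12688 genes. The probe set with the highest mean log2 intensity stood for a gene. The log2 ratio is S100A7 over vector, and genes were counted at 2-fold.

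With 1 array per group there was no test, and the number of arrays limits the precision. The members and gene lists were chosen with earlier results of these data known. Named from the lists were genes past 2-fold, the highest and the lowest gene, all other lysyl oxidases and chains of collagens IV, V and VI, all markers, and the genes next to the COL4A1 and COL6A1 pairs; any other is said to be chosen after its values were seen. The counting steps were tested on simulated data. Alternatives were the array scaling, the floor, a pseudocount of 32, the choice of probe set, the fold threshold, and the subtraction of chromosomal neighbours, which was chosen after seeing the data. Python 3.11.15 with pandas 2.3.3 and numpy 2.4.6 was used.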

Additional observations from a re-analysis of the deposited data

How the results depend on the processing

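The count of 5 genes at least 2-fold higher was kept under median centring, quantile normalization, a lower floor (30th percentile), a higher floor (70th percentile) and no floor at all. It was also kept with an added pseudocount of 32, the median over probe sets and removal of probe sets ending in _x_at or _s_at. Subtraction of the median of up to 40 chromosomal neighbours (24 for PXDN, 31 for COL6A1 and 30 for COL6A2) kept it too. Under these settings 1.1% (higher floor) to 9.66% (no floor) of all measured genes were that much higher. With the higher floor COL5A1, PXDN and COL6A2 passed through the S100A7 array alone. Without probe sets ending in _x_at or _s_at, so did COL6A1 and COL6A2. Their direction in those settings followed from the floor, so the kept count there adds no support. Of the 10 genes, 6 were higher at 1.5-fold and 4 at 3-fold, beside 8.12% and 0.37% of all measured genes. COL4A5 and COL5A2 left with the higher floor, and COL4A5 and LOXL2 left when probe sets with these suffixes were removed. At 1.5-fold 1 member was lower, beside 10% of all measured genes. Of member probe sets, 7 of 13 were higher with the higher floor and 5 of 22 at 3-fold. Lower were 1 of 24 with the lower floor, 2 of 28 with no floor, 1 of 22 with a pseudocount of 32 and 1 of 22 at 1.5-fold. Shares over all probe sets are not given here for these settings. Over all genes, 679 stood higher and 979 lower of 16769 when the floor was the 30th percentile, and 99 and 88 of 8976 when it was the 70th. With no floor the counts were 1911 and 2387 of 19775. Of 12688 genes they were 1030 and 1275 at 1.5-fold, and 47 and 55 at 3-fold. Each of these settings changes which values count. With several probe sets per gene reduced to their median, COL6A1 had a log2 ratio of 1.29, and without probe sets of these suffixes COL6A2 had one of at least 1.47. That COL6A2 value came from a probe set that passed the floor through the S100A7 array alone. With the higher floor, COL5A1 was at least 1.02 and PXDN at least 1.05, as the floor replaced their vector values of 188 and 184. COL4A5 was at 0.85 with the lower floor or none, as its vector value of 44.9 was then not replaced. It was at 0.56 with the pseudocount, against at least 0.19 as reported. These shifts follow from how each setting treats dim values or chooses probe sets. No paired analysis was possible because each group has 1 array. Dim probe sets, such as those of COL4A5, COL5A2 and 6 of the 8 of COL6A1, give the least certain ratios.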
